A study of Mus musculus with 7 samples.

Results

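The genes described here are the interferon-inducible families and the interferon regulatory factors (IRFs) of mouse alveolar macrophages. They were chosen by name from the deposited table of TPM, a length-scaled share of each library's transcripts. A protein-coding row was taken if its symbol began with Ifit, with Ifi and a digit, or with Oas, Gbp and a digit, Irf and a digit, Irgm or Isg, or was Mx1 or Mx2. Ifi30 was left out, and a mean of at least 0.5 TPM over the 7 libraries was required. Of 47643 rows, 68 carried such a name, and 43 of these were members. A further 21 were protein-coding rows under 0.5 TPM, and 4 had another biotype. The level therefore chose the members, with Mx1 (mean 0.576 TPM) and Ifi205 (0.661 TPM) just inside the limit and Irf4 (0.496 TPM) and Gbp9 (0.483 TPM) just outside it.

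The study compared alveolar macrophages, which live in the air spaces of the lung and clear particles and surfactant, with and without the E3 ubiquitin ligases Siah1a and Siah2. Sorted cells positive for CD11c, F4/80 and SiglecF came from wild-type mice (WT, n = 3), from cSiah1a/2f/f::Lyz2cre mice (Lyz2cre, n = 3) and from cSiah1a/2f/f::CD11ccre mice (CD11ccre, n = 1). In the deleted lines floxed Siah1a and Siah2 are cut by Cre driven by Lyz2, a gene active across myeloid cells, or by CD11c, which alveolar macrophages share with dendritic cells. The labels name no treatment, age or sex, do not say whether the WT animals carried Cre or floxed alleles, and do not state if each replicate was a different animal, so p-values speak only to the spread among the libraries at hand.

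Type I interferons bind Ifnar1 and Ifnar2 and act through Jak1 and Tyk2 on a complex that holds Stat2 and Irf9 and binds the interferon-stimulated response element (ISRE) of its target genes. Interferon gamma acts on genes with a gamma-activated site (GAS) and induces Irf1 and the guanylate-binding proteins. Irf3 and Irf7 act at the other end, switching on the interferon genes after viral nucleic acid has been sensed. Alveolar macrophages are a known source of type I interferon in lung infection.

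The ISRE was searched as GAAANNGAAA on either strand (TTTCNNTTTC when read on the other strand) in 300-base RefSeq windows of the GRCm38.p6 build that ran from 250 bases before to 50 bases after each annotated start. Overlapping matches were each counted. Of the 43 members 37 had such a window, and 19 of these (51.4%) held an ISRE match, against 3.99% of all 27025 genes with a window. The GAS, searched as TTCNNNGAA, which is its own reverse complement, was found in 12 of the 37 (32.4%), against 9.55% of all genes. A match describes the letters only and is no evidence that a factor binds there.

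The stretches below hold the ISRE matches, in capitals, of 6 members of different families, picked from the members with a match. Not every family held one, as the windows of Irf2bp1, Irf2bp2 and Irf2bpl had no ISRE match. Each is printed 5′ to 3′ in the direction of its gene, in the build above. They are Isg15 (chr4:156200865-156200906, minus strand), Ifitm2 (chr7:140955988-140956017, minus strand), Ifit1 (chr19:34640775-34640823, plus strand), Gbp2 (chr3:142620594-142620623, plus strand), Irgm1 (chr11:48871425-48871460, minus strand) and Oas3 (chr5:120777715-120777744, minus strand).
Isg15: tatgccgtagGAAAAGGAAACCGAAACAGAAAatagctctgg
Ifitm2: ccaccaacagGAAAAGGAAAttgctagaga
Ifit1: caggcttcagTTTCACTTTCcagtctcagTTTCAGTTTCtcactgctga
Gbp2: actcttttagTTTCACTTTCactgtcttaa
Irgm1: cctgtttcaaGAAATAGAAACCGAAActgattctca
Oas3: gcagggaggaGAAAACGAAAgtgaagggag

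Isg15 held 3 overlapping matches, beginning 78, 72 and 66 bases before the start, and Irgm1 held 2 that overlapped, while the 2 matches of Ifit1 stood apart. Ifitm2 held 1 match, beginning 46 bases before the start. The windows of Ifitm10, Irf5, Irf7 and Irf9 held neither element, and among the 7 IRFs only Irf2 held an ISRE match, which says only that these letters are not in those windows.

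**Figure D1:**
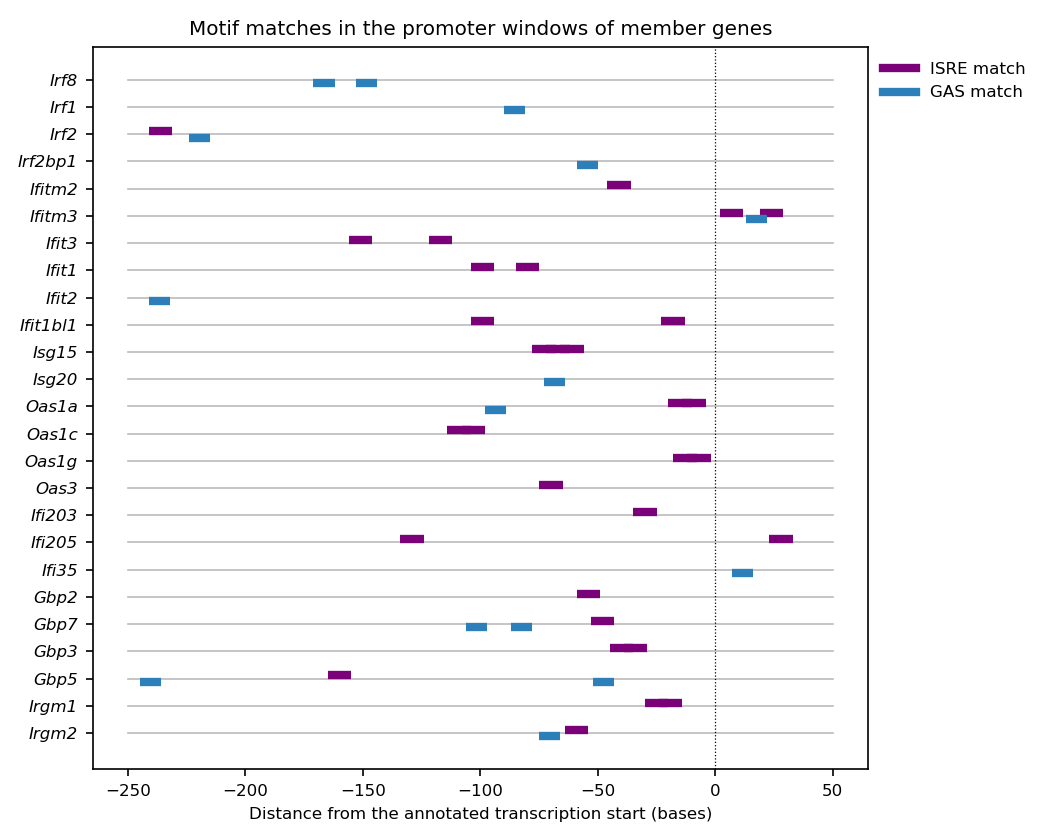
Positions of ISRE and GAS matches (coloured bars) along the promoter windows of the members that hold one, with the distance from the annotated start in bases on the horizontal axis and genes on the vertical axis. Grey lines span the window from 250 bases before to 50 bases after the start (dotted line), and matches of all windows of a gene are drawn on its line. The 3 ISRE matches of Isg15 lie between 78 and 66 bases before the start, and that of Ifitm2 lies at 46.

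The targeted genes were checked first. Siah1a stood at 16.59, 6.72 and 13.35 TPM in WT, was listed at 0, 0 and 0.05 TPM in Lyz2cre and was listed at 0 in CD11ccre. Siah2 stood at 13.56, 12.69 and 17.33 TPM for WT, 1.95, 1.45 and 1.5 TPM for Lyz2cre and 1.21 TPM for CD11ccre. All 12 listed alveolar macrophage markers were expressed, among them Chil3, a chitinase-like protein, with a mean TPM of 21685 for WT and 60484 for Lyz2cre. Siglecf, part of the sort gate, fell from a mean of 231 to 84.5 TPM and Fcgr1 from 55.9 to 23.2 TPM, and these were the 2 markers called lower, while 5 were called higher. In bulk RNA, fewer cells of a type and less RNA per cell cannot be told apart. TPM keeps no depth, so the depth is unknown.

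Most members were expressed at a low level in these cells, for which the labels name no treatment. Mean levels over the 7 libraries ran from 0.576 TPM (Mx1) to 119 TPM (Ifi27), with a median of 4.95 TPM. The most abundant were Ifi27, a mitochondrial membrane protein, Ifitm2 (66.1 TPM), a membrane protein that blocks virus fusion, Irf2bp2 (61.6 TPM), a corepressor that binds Irf2, and Irf8 (54.5 TPM), a lineage factor of myeloid cells. By family, the median level was 1.11 TPM for the 4 Ifit genes, 1.56 TPM for the 6 Oas genes, 4.96 TPM for the 6 Gbp genes and 32.3 TPM for the 7 IRFs. The Oas family ran from 1.01 TPM (Oas3) to 19.5 TPM (Oas1a). The median level of members with an ISRE match in their window was 2.94 TPM, and that of members without a match was 7.99 TPM.

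**Figure D2:**
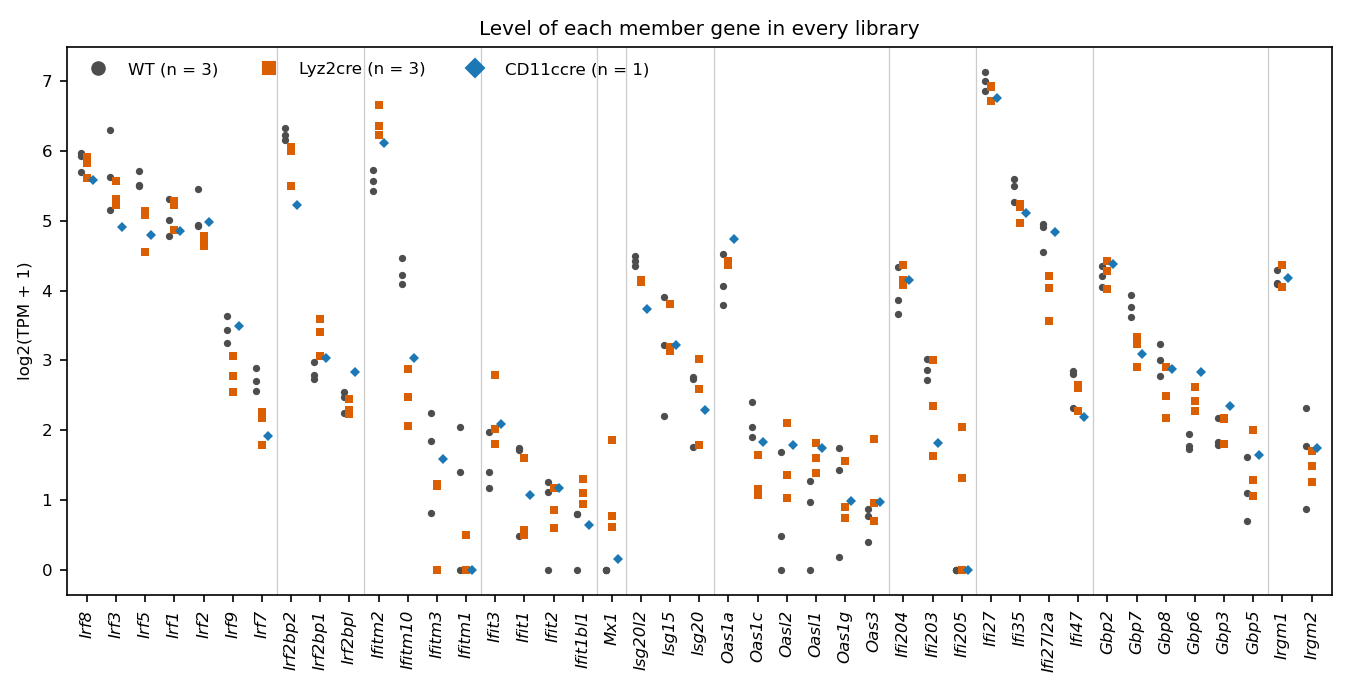
Level of each of the 43 members as log2(TPM + 1) on the vertical axis, with genes on the horizontal axis ordered by family and each point 1 library (circles WT, n = 3, squares Lyz2cre, n = 3, diamond CD11ccre, n = 1). Ifi27 is the highest in all libraries, and the Ifit genes, Mx1 and most Oas genes lie near the bottom.

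Of the 43 members, 38 reached the mean of 1 TPM needed for testing. Mx1, Ifi205, Ifit2, Ifit1bl1 and Ifitm1 did not. In Lyz2cre against WT, 1 member rose (Ifitm2) and 1 fell (Ifitm10), and 36 did not pass an adjusted p of 0.05 in limma on log2(TPM + 1). Of all 11397 genes tested, 2.17% rose and 4.6% fell, 6.76% in all. The 3 Lyz2cre libraries lay wholly above WT in 4 members (10.5%, against 7.45% of all genes) and wholly below WT in 11 (28.9%, against 23.3%). Of the 4, Oasl1 had a WT mean of 0.797 TPM and was tested only through the deleted libraries. An unadjusted p under 0.05 was reached by 10 members (26.3%), against 24.6% of all genes. These shares lay close to those of the whole table.

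The median log2 fold change of the 38 members was -0.12, and that of all genes tested was -0.16, so most genes stood slightly lower in Lyz2cre on the TPM scale. After median-of-ratios scaling the medians were 0.04 and 0.00. That scaling also turned the split of all calls from 247 higher and 524 lower to 340 higher and 205 lower, and quantile normalization gave 316 and 213. Fold changes on this scale understate the change of genes at low TPM, while values given as N-fold are ratios of mean TPM.

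The IRF family held 7 members, and none passed the threshold in limma. An unadjusted p under 0.05 was reached by 3 (Irf5, Irf7 and Irf9), against 24.6% of all genes. Irf3 and Irf7 switch on interferon genes, Irf1 and Irf2 act as activator and antagonist at shared sites, Irf5 drives inflammatory cytokine genes in macrophages, Irf8 directs myeloid lineages, and Irf9 joins Stat2. The fold change was below 0 in 6 of 7, against 67.0% of all genes, and in 5 of 7 after median-of-ratios scaling. Their summed level was 257, 243 and 217 TPM for WT, 203, 207 and 170 TPM for Lyz2cre and 174 TPM for CD11ccre, so all deleted libraries lay below the lowest WT library on the TPM scale. After median-of-ratios scaling the sums were 227, 226 and 197 for WT, 204, 210 and 183 for Lyz2cre and 197 for CD11ccre, and the groups overlapped. In CD11ccre the fold change was below 0 in 6 of 7 IRFs, against 73.2% of all genes, and in 3 of 7 after that scaling.

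Irf5 stood at 43.98, 51.43 and 44.41 TPM for WT, 32.94, 34.28 and 22.4 TPM for Lyz2cre and 26.63 TPM for CD11ccre. All 4 deleted libraries lay below all 3 WT libraries. Its log2 fold change in Lyz2cre was -0.64 ± 0.19 (SE, adjusted p = 0.0853). Over 18 alternatives it ran from -0.75 to -0.46 with an adjusted p from 0.0435 to 0.204, and it passed only with protein-coding genes only.

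Irf7 stood at 4.9, 5.52 and 6.4 TPM for WT, 3.79, 3.51 and 2.45 TPM for Lyz2cre and 2.77 TPM for CD11ccre, again with all deleted libraries below WT. Its log2 fold change was -0.64 ± 0.23 (SE, adjusted p = 0.146) in Lyz2cre and -0.80 (adjusted p = 0.209) in CD11ccre. Irf7 lies outside the rule for genes given in full and was chosen after its values were seen.

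Irf9 stood at 9.8, 8.5 and 11.48 TPM for WT, 5.84, 4.85 and 7.33 TPM for Lyz2cre and 10.27 TPM for CD11ccre. Here the Lyz2cre libraries lay below WT and the CD11ccre library lay among the WT libraries. The log2 fold change was -0.65 ± 0.21 (SE, adjusted p = 0.109) in Lyz2cre and 0.05 (adjusted p = 0.935) in CD11ccre. The difference between the deleted lines, CD11ccre minus Lyz2cre, was 0.70 ± 0.29 (SE, adjusted p = 0.817).

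Irf8 was nearly level, at 59.51, 61.49 and 50.78 TPM for WT, 59.34, 55.92 and 47.65 TPM for Lyz2cre and 46.64 TPM for CD11ccre. The WT and Lyz2cre ranges overlapped, and the log2 fold change was -0.08 with a 95% interval from -0.40 to 0.25. It turned to 0.10 after median-of-ratios scaling. Irf3 varied most among WT libraries, at 77.73, 48.4 and 34.42 TPM. Irf1, an early target of interferon gamma, overlapped between WT and Lyz2cre, with a log2 fold change of 0.09. Irf2 lay lower in all Lyz2cre libraries on the TPM scale, with a log2 fold change of -0.39 (adjusted p = 0.224).

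The name rule also took in Irf2bp1, Irf2bp2 and Irf2bpl, which encode proteins that bind Irf2 or resemble those that do and are not IRFs. Irf2bp2 stood at 73.81, 69.89 and 78.77 TPM for WT, 65.72, 62.71 and 44.21 TPM for Lyz2cre and 36.43 TPM for CD11ccre. CD11ccre was the lowest of the 7 libraries, with a log2 fold change against WT of -1.0 (adjusted p = 0.0716, from 0.035 with protein-coding genes only to 0.203 over 17 alternatives). Irf2bp1 ran the other way, at 6.88, 5.92 and 5.67 TPM for WT, 9.57, 11.11 and 7.33 TPM for Lyz2cre and 7.2 TPM for CD11ccre. Its log2 fold change in Lyz2cre was 0.52 ± 0.20 (SE, adjusted p = 0.173).

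The Ifitm family, small membrane proteins of which Ifitm1, Ifitm2 and Ifitm3 hinder virus entry, held both called members, and they moved in opposite directions. Ifitm2 (ENSMUSG00000060591, chr7:140954837-140955987, minus strand of mm10) measured 51.63, 46.25 and 41.92 TPM for WT, 73.95, 80.54 and 99.97 TPM for Lyz2cre and 68.22 TPM for CD11ccre. All 4 deleted libraries lay above all WT libraries. The mean of the Lyz2cre libraries, 84.8 TPM ± 13.5 (SD, n = 3), was 1.82-fold that of the WT libraries, 46.6 TPM ± 4.86 (SD, n = 3). The log2 fold change was 0.84 ± 0.15 (SE, adjusted p = 0.0229, limma), and the exact two-sided permutation p was 0.1, the smallest that 3 against 3 libraries allow. No library of the 6 could be dropped without losing the call (adjusted p from 0.0515 to 0.0822). It was also lost without the filter on low values (0.0619), without the variance trend (0.0542) and with the replicate number as a block (0.0658). The log2 fold change stayed between 0.72 and 1.03 over the 18 alternatives. Of the 75-base windows of Ifitm2 transcripts, 42.0% also occur in other genes of the GENCODE M21 annotation, mainly Gm45717 (33.4%). The deposited table, which keeps genes listed at 0, holds no row for Gm45717, so no level of it can be set beside that of Ifitm2. How reads of the shared windows were assigned is not given.

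Ifitm10 (chr7:142325837-142373753, minus strand), a less studied relative, stood at 17.58, 16.09 and 21.13 TPM for WT, 4.58, 6.35 and 3.19 TPM for Lyz2cre and 7.19 TPM for CD11ccre. The groups did not overlap, and the CD11ccre library lay between them. The mean of the Lyz2cre libraries, 4.71 TPM ± 1.58 (SD, n = 3), was 3.88-fold lower than that of the WT libraries, 18.3 TPM ± 2.59 (SD, n = 3). The log2 fold change was -1.78 ± 0.24 (SE, adjusted p = 0.00912, limma), with an exact two-sided permutation p of 0.1. The call held in all 18 alternatives (adjusted p from 0.00232 to 0.0481). In CD11ccre it was 2.54-fold lower than in WT, with a log2 fold change of -1.23 (adjusted p = 0.0987). Ifitm3 overlapped between the groups at 3.74 TPM or less in every library, and Ifitm1 was listed at 0 in 4 of the 7.

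**Figure D3:**
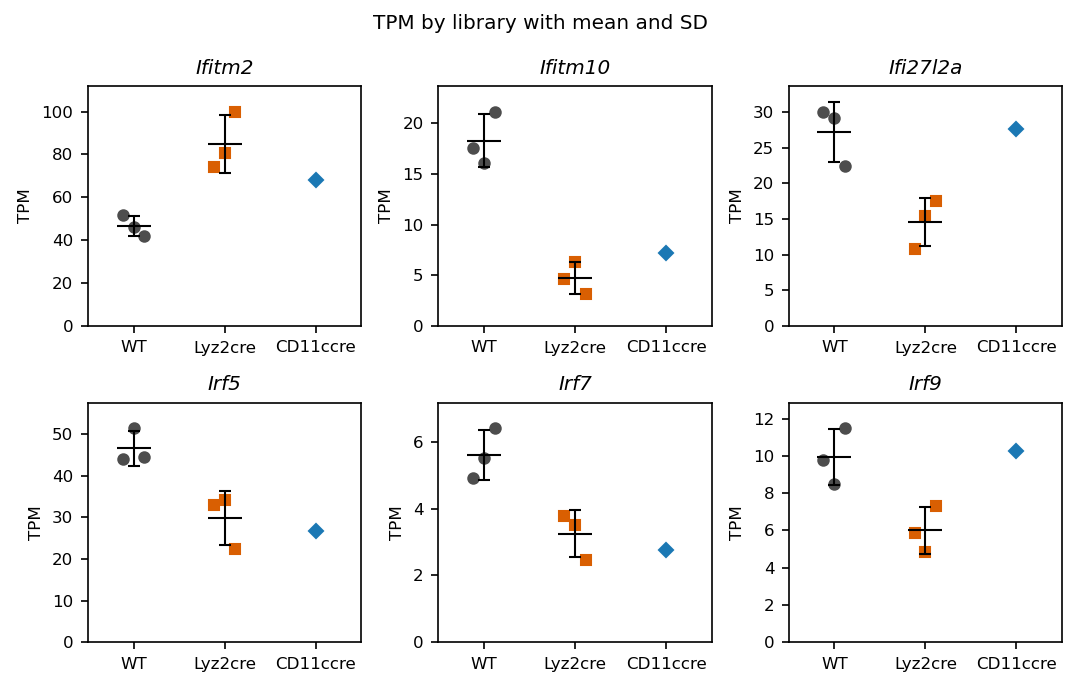
TPM (vertical axes, from 0) of Ifitm2, Ifitm10, Ifi27l2a, Irf5, Irf7 and Irf9 by genotype, with each point 1 library and black bars the mean and SD of the 3 WT and the 3 Lyz2cre libraries. Ifitm2 is higher and Ifitm10, Irf5 and Irf7 are lower in all 4 deleted libraries, whereas Ifi27l2a and Irf9 are lower in Lyz2cre and lie within the WT range in CD11ccre.

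Among the other Ifi genes, Ifi27l2a, a small interferon-responsive membrane protein, stood at 30.06, 29.14 and 22.39 TPM for WT, 10.82, 15.36 and 17.51 TPM for Lyz2cre and 27.65 TPM for CD11ccre. As for Irf9, the Lyz2cre libraries lay below WT and CD11ccre lay among them. The log2 fold change in Lyz2cre was -0.87 ± 0.21 (SE, adjusted p = 0.0529). Over 18 alternatives the adjusted p ran from 0.0233 to 0.154. It passed in 3 of them, when genes under 5 TPM were left out (0.0384), with robust fitting (0.0438) and with protein-coding genes only (0.0233). CD11ccre minus Lyz2cre was 0.91 ± 0.30 (SE, adjusted p = 0.791).

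Ifi27, the most abundant member, stood at 138.75, 127.06 and 114.99 TPM for WT, 121.01, 119.14 and 103.6 TPM for Lyz2cre and 106.9 TPM for CD11ccre. The ranges of WT and Lyz2cre overlapped, and the log2 fold change of -0.15 turned to 0.04 after median-of-ratios scaling. Ifi35, a partner of the signalling protein Nmi, lay lower in all deleted libraries on the TPM scale, where most genes stood slightly lower. Its log2 fold change in Lyz2cre was -0.32 (adjusted p = 0.227). Ifi47, an interferon gamma-induced GTPase, overlapped between WT and Lyz2cre. In the Ifi200 family of DNA-binding proteins, Ifi204 stood at 19.29, 11.72 and 13.57 TPM for WT, 19.71, 16.68 and 15.86 TPM for Lyz2cre and 16.69 TPM for CD11ccre, with overlapping ranges.

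The Ifit proteins bind foreign RNA and Isg15 is a ubiquitin-like modifier, and both are standard readouts of type I interferon. Ifit3 stood at 1.27, 2.93 and 1.65 TPM for WT, 5.9, 3.04 and 2.5 TPM for Lyz2cre and 3.27 TPM for CD11ccre. The ranges overlapped, with a log2 fold change of 0.68 ± 0.36 (SE, adjusted p = 0.291), and 41.1% of its 75-base windows are shared with Ifit3b. Isg15, also chosen after its values were seen, stood at 14.02, 3.6 and 8.3 TPM for WT, 12.97, 8.18 and 7.75 TPM for Lyz2cre and 8.33 TPM for CD11ccre. The WT libraries spanned all the others, and the log2 fold change of 0.27 had a 95% interval from -0.73 to 1.27, which leaves room for a change in either direction.

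The rule's other Isg rows are an exonuclease, Isg20, and its nucleolar relative Isg20l2, which processes ribosomal RNA. Isg20l2 stood at 20.37, 21.53 and 19.37 TPM for WT, 16.79, 16.78 and 16.49 TPM for Lyz2cre and 12.29 TPM for CD11ccre. All deleted libraries lay below WT on the TPM scale, with log2 fold changes of -0.28 (adjusted p = 0.244) in Lyz2cre and -0.69 in CD11ccre. The Lyz2cre value ran from -0.31 to -0.1 over 18 alternatives.

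Mx1, an antiviral dynamin-like GTPase, was listed at 0 in all 3 WT libraries, at 2.65, 0.72 and 0.54 TPM in Lyz2cre and at 0.12 TPM in CD11ccre. Ifi205 was listed at 0 in WT and CD11ccre and at 3.14, 0 and 1.49 TPM in Lyz2cre. Each passed the level rule only through Lyz2cre libraries, so neither is counted as a difference. Among the 38 tested members Lyz2cre replicate 1 was the highest of its group in 18 (47.4%, against 38.8% of all genes), Ifit3, Isg15, Oas3 and Oasl2 among them, and the lowest in 7 (18.4%, against 25.8%), Ifit1, Ifitm3, Irgm2 and Oas1g among them. Lyz2cre replicate 3 was the lowest in 23 (60.5%, against 41.2%).

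The Oas proteins make the second messenger that activates RNase L when double-stranded RNA is present, and Oasl1 and Oasl2 are relatives. None of the 6 passed the threshold in limma, and 1 (Oas1c) had an unadjusted p under 0.05, against 24.6% of all genes. Oas1a stood at 21.97, 15.74 and 12.91 TPM for WT, 20.16, 20.47 and 19.63 TPM for Lyz2cre and 25.75 TPM for CD11ccre. The WT range held the Lyz2cre values, the CD11ccre library was the highest, and 47.6% of its windows are shared, mainly with Oas1g. Oas1c, chosen after its values were seen, ran lower, at 4.31, 2.74 and 3.12 TPM for WT and 2.14, 1.24 and 1.1 TPM for Lyz2cre, with a log2 fold change of -0.82 ± 0.30 (SE, adjusted p = 0.143). In Lyz2cre, Oasl1, Oasl2, Oas1a and Oas3 had log2 fold changes above 0, from 0.27 to 0.85. The WT means of Oasl1, Oasl2 and Oas3 (0.797, 0.883 and 0.623 TPM) lay under the 1 TPM needed for testing. Those genes were tested only through the deleted libraries, so their signs are not counted as a difference.

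The guanylate-binding proteins (Gbp) and the Irgm proteins are interferon gamma-induced GTPases that act on vacuoles holding pathogens. None of these 6 Gbp and 2 Irgm members passed in limma. An unadjusted p under 0.05 was reached by 2 of them (Gbp6 and Gbp7), against 24.6% of all genes. Gbp2 stood at 17.44, 15.58 and 19.32 TPM for WT, 18.5, 15.26 and 20.42 TPM for Lyz2cre and 19.75 TPM for CD11ccre, and Irgm1 at 16.22, 16.12 and 18.61 TPM, 19.64, 15.52 and 15.57 TPM, and 17.17 TPM. WT and Lyz2cre overlapped for both, with log2 fold changes of 0.04 and -0.01, while the CD11ccre library lay just above WT for Gbp2 and within WT for Irgm1. Gbp7 stood at 11.25, 12.61 and 14.26 TPM for WT, 8.39, 6.47 and 9.1 TPM for Lyz2cre and 7.51 TPM for CD11ccre. It lay below WT in all deleted libraries (log2 fold change -0.61 ± 0.19, SE, adjusted p = 0.0983). Gbp6, chosen after its values were seen, lay above WT in all of them, at 2.34, 2.43 and 2.85 TPM for WT, 4.36, 5.14 and 3.86 TPM for Lyz2cre and 6.14 TPM for CD11ccre (0.62 ± 0.22, SE, adjusted p = 0.138). Gbp6 shares 67.3% of its windows with neighbouring copies, and its level is uncertain for that reason. The main partner (61.7%) is another row that the deposited table also names Gbp6, and it was listed at 0 in every library. Gbp3, Gbp5, Gbp8 and Irgm2 overlapped between WT and Lyz2cre, as did Ifi203, Ifit1, Irf2bpl, Isg20 and Oas1g of the other families.

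**Figure D4:**
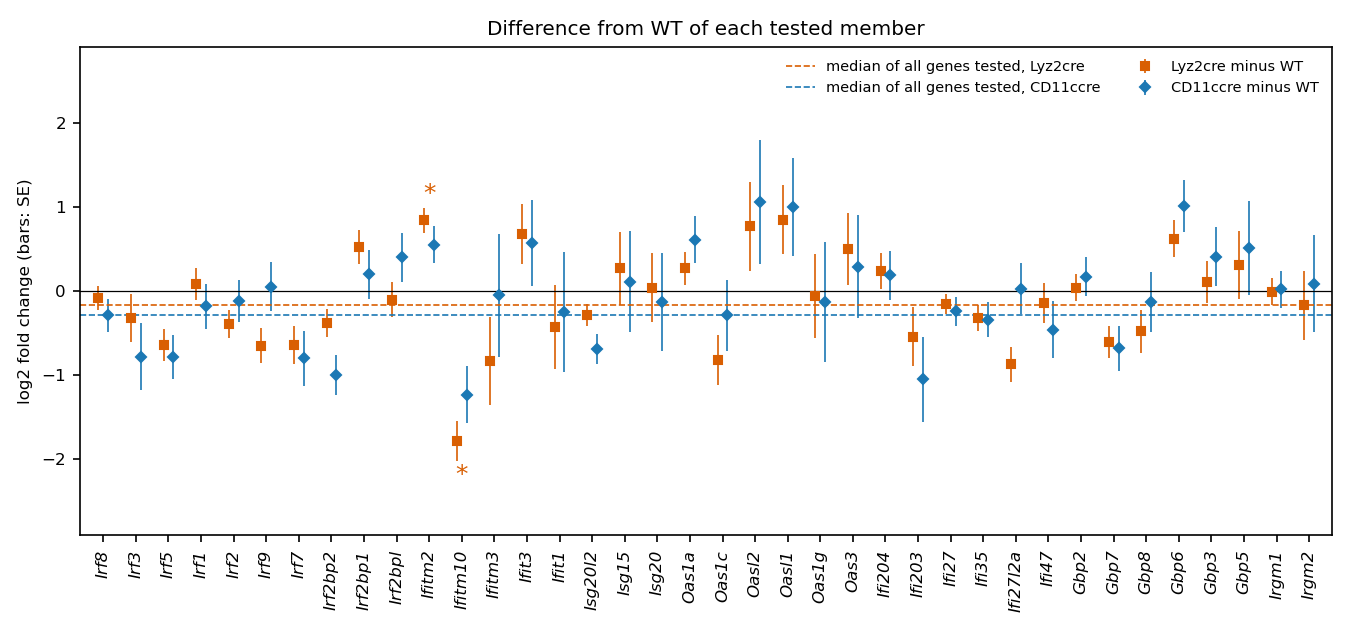
Log2 fold change against WT, on the log2(TPM + 1) scale, of the 38 tested members ordered by family, with bars of 1 SE (squares Lyz2cre, diamonds CD11ccre). Dashed lines mark the medians of all genes tested (-0.16 and -0.29), and asterisks mark Ifitm2 and Ifitm10, the members called in Lyz2cre.

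In CD11ccre against WT, 0 of the 38 members passed in limma, where 0.895% of all genes rose and 1.99% fell, 2.89% in all. The split of these calls, 102 higher and 227 lower, turned to 153 and 85 after median-of-ratios scaling and to 122 and 79 after quantile normalization. An unadjusted p under 0.05 was reached by 8 members (21.1%), against 22.3% of all genes. The lone library lay above all WT libraries in 12 members (31.6%, against 13.0% of all genes) and below all of them in 13 (34.2%, against 50.5%). Of the 12, Oasl1, Oasl2 and Oas3 had WT means under 1 TPM and were tested only through the deleted libraries. The median log2 fold change was -0.09 for members and -0.29 for all genes, and 0.18 and 0.00 after median-of-ratios scaling. This comparison uses the same WT libraries as the one above, and its lone deleted library is taken to have the spread of the replicated groups.

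Between the deleted lines, CD11ccre against Lyz2cre, 0 of 38 members passed, where 0.0439% of all genes were higher and 0.0702% lower, 0.114% in all. The CD11ccre library lay above all Lyz2cre libraries in 11 members (against 15.7% of all genes) and below all of them in 8 (against 39.0%). An unadjusted p under 0.05 was reached by 3 members, Irf9 and Ifi27l2a (higher in CD11ccre) and Irf2bp2 (lower), which is 7.89% against 6.1% of all genes.

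Members with and without an ISRE match in their windows were set side by side. The 17 tested members with a match had a median log2 fold change in Lyz2cre of -0.01, with 9 below 0 and 8 above. The 16 without a match had a median of -0.21, with 11 below 0 and 5 above, and 6 of the 7 IRFs were among them. The median of all genes tested was -0.16, with 67.0% below 0, close to the members without a match. In CD11ccre the medians were 0.09 and -0.32, against -0.29 for all genes. Ifitm2 belonged to the first group and Ifitm10 to the second, so the called members were split between them. The tested members Gbp6, Gbp8, Ifi204, Ifi27 and Ifi27l2a had no window and are in neither group. Members with a match also stood lower, at a median of 2.94 TPM against 7.99 TPM. Fold changes on this scale are understated at low TPM, and the part of level in the contrast was not tested. Oasl1 and Oasl2 (no match) and Oas3 (match) had WT means under 1 TPM and were tested only through the deleted libraries. Ifit1 and Ifitm3 (match) had Lyz2cre means of 0.983 and 0.883 TPM, also under 1 TPM. The signs and medians of both groups therefore depend in part on the level filter, and the contrast is not counted as a difference.

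Genes around the families were read from lists of the pathway. Of 21 interferon ligand genes 19 were listed at 0 in every library. The exceptions were Ifnk and Ifng, seen in WT replicate 3 at 1.29 and 0.83 TPM. Of 10 tested receptors, Janus kinases and STATs none passed in Lyz2cre in limma, and 2 of the 10 had an unadjusted p under 0.05, against 24.6% of all genes. Ifngr1, a subunit of the interferon gamma receptor, had a mean TPM of 131 for WT and 105 for Lyz2cre, and Il10rb, shared by interferon lambda and interleukin receptors, had means of 82.0 and 94.6 TPM. Stat2, a partner of Irf9 that was chosen after its values were seen, stood at 6.33, 6.97 and 8.15 TPM for WT and 5.61, 5.3 and 4.75 TPM for Lyz2cre (adjusted p = 0.256). Every Lyz2cre library lay below the WT libraries on the TPM scale.

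Of 15 tested nucleic acid sensors and adaptors 1 fell (6.67%, against 4.6% of all genes), Mavs, the mitochondrial adaptor of the RNA sensors. It stood at 47.5, 40.99 and 52.69 TPM for WT, 27.06, 33.16 and 25.82 TPM for Lyz2cre and 24.34 TPM for CD11ccre, with all deleted libraries below WT. The log2 fold change in Lyz2cre was -0.70 ± 0.16 (SE, adjusted p = 0.0438). Of 40 tested interferon-stimulated genes outside the families 1 fell (2.5%, against 4.6%), Ly6e, a membrane protein that restricts coronaviruses. It stood at 369.21, 323.29 and 387.32 TPM for WT, 234.6, 244.94 and 251.4 TPM for Lyz2cre and 236.45 TPM for CD11ccre. Its log2 fold change in Lyz2cre was -0.56 ± 0.11 (SE, adjusted p = 0.0264). Rsad2 of the same list, chosen after its values were seen, was not called and ran the other way. It stood at 1.25, 0.99 and 0.11 TPM for WT, 5.07, 2.2 and 3.76 TPM for Lyz2cre and 2.74 TPM for CD11ccre. Its WT mean of 0.783 TPM lay under the 1 TPM needed for testing, so it is not counted as a difference.

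Each call was lost under several alternatives. After median-of-ratios scaling the log2 fold changes were -0.52 for Mavs and -0.37 for Ly6e, each with an adjusted p of 0.102. Leaving out any 1 of the 6 libraries ended the Mavs call (0.0709 to 0.146), and leaving out any except WT replicate 2 ended the Ly6e call (0.0587 to 0.0941). None of 10 tested negative regulators and none of 6 tested interferon gamma-induced GTPases and chemokines passed in limma, with 3 (30.0%) and 2 (33.3%) at an unadjusted p under 0.05, against 24.6% of all genes. Samhd1, which degrades nucleotides needed for viral DNA synthesis, had a mean TPM of 323 for WT and 231 for Lyz2cre (adjusted p = 0.0557), and Rnaseh2a, a subunit of RNase H2, had means of 66.4 and 58.9 TPM (adjusted p = 0.462). Cd274, the checkpoint ligand PD-L1, had means of 53.1 and 36.9 TPM (adjusted p = 0.0842), and Gvin1, a very large interferon-induced GTPase, 11.4 and 4.85 TPM (adjusted p = 0.182).

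Markers of other cell types that the sort could hold gave the following sums, in the order WT, Lyz2cre and CD11ccre. The 7 B cell markers summed to 6.96 to 17.6, 0.42 to 2.76 and 1.7 TPM, with Igkc called lower in Lyz2cre. The 7 T and NK cell markers summed to 2.74 to 5.99, 0 to 1.14 and 0 TPM, with none called and Ncr1 and Klrb1c listed at 0 in every library. For both cell types the Lyz2cre and WT sums did not overlap. Single genes made up most of the WT sums, Igkc at 5.8, 4.59 and 15.12 TPM and Gzma at 2.15, 3.63 and 3.0 TPM. Both lay under 1 TPM in Lyz2cre (means 0.617 and 0.38 TPM) and CD11ccre (0.44 and 0 TPM), so they were tested only through WT. Cd3g, Trac and Cd3e were seen in WT replicate 3 alone.

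The 9 conventional dendritic cell markers summed to 6.38 to 24.9, 2.65 to 8.34 and 2.8 TPM, with overlap. Batf3, called lower (mean 14.9 TPM in WT, 0.98 TPM in Lyz2cre), made up most of the WT sum, while Clec9a, the other tested marker, ran the opposite way at 0.593 and 1.8 TPM (adjusted p = 0.178), and Flt3 was listed at 0 in all WT libraries. The 6 plasmacytoid dendritic cell markers overlapped at 5.82 to 11.4, 5.61 to 7.23 and 6.47 TPM, nearly all of it Tcf4, with none called and Siglech listed at 0 in all WT libraries. The 7 monocyte markers summed to 167 to 206, 97.2 to 163 and 135 TPM, nearly all of it Nr4a1 (adjusted p = 0.154). Ccr2 was called lower, but it was tested only through WT (means 4.66 TPM in WT and 0.743 TPM in Lyz2cre, 0.6 TPM in CD11ccre). Ace had means of 15.5 TPM for WT and 14.4 TPM for Lyz2cre.

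The 7 neutrophil markers summed to 54.8 to 107, 125 to 168 and 151 TPM, with S100a8 called higher, Csf3r called lower and Ly6g listed at 0 throughout. The 6 endothelial markers summed to 30.3 to 59.9, 88.1 to 127 and 72.6 TPM, nearly all of it Vwf, which was called higher, while Pecam1, Cldn5, Tek, Cdh5 and Kdr each stayed at or under 0.9 TPM. The 6 alveolar type 2 cell markers overlapped at 17.2 to 31.4, 28.7 to 50.3 and 36.2 TPM, with none called. The part of these cells in the differences of Ifitm2, Ifitm10, Irf5, Irf7 and the other members was not tested.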

How the data were processed

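Poly(A) RNA of 7 libraries was read from a single end with strand-specific kits, per the labels' protocols. The authors deposited TPM to 2 decimals, made with cutadapt 2.3, STAR 2.7.0d, RSEM 1.3.1 and mm10, per the submitters' processing notes. The annotation release and strand setting were not given in the sources used here. Depth cannot be recovered from TPM.

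All 7 libraries, grouped by title, entered 1 limma 3.58.1 fit (R 4.3.3) on log2(TPM + 1) with a coefficient per genotype and a mean-variance trend. Genes with a mean of at least 1 TPM were kept (11397, 4 residual degrees of freedom and 3.35 prior ones), and Benjamini-Hochberg adjustment of the two-sided p-values ran over all of them. Members and lists were chosen with earlier results of these data known. Values in every library are given for called members, the most abundant member of each family and the 5 uncalled members with the largest difference among those of at least 5 TPM. Of each list of pathway genes, up to 4 called genes are named, or otherwise the 2 most abundant. Other genes (Irf7, Isg15, Gbp6, Oas1c, Ifi205, Stat2, Rsad2, Irf3 in WT and the markers named) were chosen after their values were seen. Statements that libraries lie above or below others refer to TPM as deposited.

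Of 47643 gene IDs 47224 matched GENCODE M21, including all members. In simulated data for Lyz2cre against WT over 11397 genes, 42 of 100 changes of 1 log2 unit and 89 of 100 of 2 log2 units were recovered, with 8 false calls. For CD11ccre against WT it was 18 and 61 of 100, with 5 false calls. The changes were added on the log2 scale, and only to genes whose level lay above the members' median of 4.95 TPM. Recovery among members at lower levels was not tested. At most 1.79% of values were equal between any pair of libraries, so none was counted as a copy. Alternatives were pseudocounts of 0.1 and 5, other filters, scalings and variance models, a replicate block, protein-coding genes only, and leaving out each library. Promoter windows came from RefSeq (GRCm38.p6). The values of 1 listed gene are not reported here.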

Additional observations from a re-analysis of the deposited data

How the results depend on the processing

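The direction of Ifitm10, Ifitm2, Irf5 and Gbp7 in Lyz2cre held under all alternatives run. Of all genes, 771 were called in Lyz2cre, 342 without a filter on low values, 436 without the variance trend and 203 to 441 when 1 WT or Lyz2cre library was left out (778 without CD11ccre). The count of members called higher, 1, became 0 without the filter, without the trend and on dropping any single WT or Lyz2cre library (0 to 0). The count called lower, 1, became 2 with a mean of at least 5 TPM, 2 with robust fitting and 3 with protein-coding genes only. For CD11ccre against WT, 329 genes were called, 201 after quantile normalization, 122 without the trend, 689 with protein-coding genes only and 23 to 170 when 1 WT or Lyz2cre library was left out. There, members called lower went from 0 to 1 without the filter (Isg20l2) and to 1 with protein-coding genes only (Irf2bp2). Between the deleted lines 13 genes were called, 210 without the filter, 2 with protein-coding genes only and 1 to 17 when 1 WT or Lyz2cre library was left out.

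With the replicate number as a block, 390 genes were called in Lyz2cre, 21 in CD11ccre and 3 between the deleted lines, with 0 members higher and 1 lower. Deviations of same-numbered libraries correlated at -0.015, 0.043 and 0.066 across genes, and not every library correlated best with its own number, so the numbers are not taken as pairs. The block and the left-out libraries lower the residual degrees of freedom by construction. The cause of the other changes was not tested.

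Differences near 0 changed sign. In Lyz2cre, Gbp2 went to -0.03 without WT replicate 2 and -0.05 without Lyz2cre replicate 3. Irf8 went to 0.10 and 0.11 under median-of-ratios and quantile scaling and ran from -0.16 to 0.01 with single libraries left out, positive without Lyz2cre replicate 3. Irgm1 went to 0.16 and 0.15 under these scalings, and ran from -0.12 to 0.05 with single libraries left out, positive on dropping the third WT library (0.05) or the second or the third Lyz2cre library (0.04 each). Ifi27 went to 0.04 under both scalings. In CD11ccre, Irf8 went to 0.03 and 0.02 and Ifi27 to 0.08 and 0.03 under the scalings. Ifi204 went to -0.09 and Irgm1 to -0.06 with the block. Irgm1 went to -0.01 and -0.02 without WT replicate 1 or 2, and to -0.01 with protein-coding genes only. Ifi27l2a went to -0.09 without WT replicate 3, and Irf9 to -0.04 without WT replicate 2.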
